A study of Mus musculus with 23 samples.

Results

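Foxp1, Foxp2 and Foxp4 are the 3 members of the FOXP subfamily of forkhead transcription factors that are known from neurons, and their transcripts were followed here in nucleus accumbens punches of mice with 1 intact copy of Foxp2. The members were taken as every array probe annotated to 1 of these genes. Of 9 such probes, 6 were tested because 5 or more arrays gave them a detection p under 0.01, among 18509 probes tested in all, and the 3 genes stood among 10138 genes with a tested probe. Foxp1 had 2 probes, both tested, Foxp2 had 4, of which 3 were tested, and Foxp4 had 3, of which 1 was tested.

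FOXP proteins bind DNA through a winged-helix forkhead domain and dimerise with themselves and with each other through a leucine zipper, and they mostly act as repressors together with CtBP and NuRD corepressors. Foxp1 and Foxp2 are both expressed by projection neurons of the striatum, where Foxp1 is found in D1-type and D2-type neurons and Foxp2 mainly in D1-type neurons, and Foxp4 is expressed more broadly. Mutations of FOXP2 in people cause a speech and language disorder, and mutations of FOXP1 cause intellectual disability with language impairment.

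The mice were C57BL6 animals of both sexes, either wild type or heterozygous for the S321X allele of Foxp2 (S321X/+), in which a serine codon is replaced by a stop codon. Cocaine, which blocks dopamine reuptake, was injected intraperitoneally at 15 mg/kg, with saline as the control, and the nucleus accumbens was taken 1 h later. Each animal gave 1 of the 23 Illumina MouseWG-6 v2 arrays. Among wild-type mice 6 had saline and 6 cocaine, and among heterozygotes 5 had saline and 6 cocaine. The stop codon is present in every cell and from conception, so these groups do not separate the adult accumbens from development. Levels are given as log2 intensity after background correction and quantile normalization, and a probe was called in a comparison at an adjusted p under 0.05 in limma, with adjustment over all probes tested. Precision is limited by the number of arrays. Arrays are named by the number in their column heading.

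On the RefSeq assembly GRCm38.p6, Foxp2 lies on chromosome 6 between 14901349 and 15441977, Foxp1 on the same chromosome between 98925342 and 99522746, and Foxp4 on chromosome 17 between 47867133 and 47924632. RefSeq start sites of Foxp1 gave 3 promoter windows, each from 250 bases before the start to 50 after it, and Foxp4 gave 1. The forkhead core TGTTTA, searched on both strands, occurred in each of the 3 Foxp1 windows and not in that of Foxp4. It occurred in 13.4% of all 32851 windows of 300 bases. The cAMP response element TGACGTCA, also searched on both strands and not overlapping the forkhead core, was found in 0 of the 4 windows and in 1.79% of all windows. The Foxp1 window with 2 matches (chr6:99266466-99266765, minus strand) and the Foxp4 window (chr17:47924583-47924882, minus strand) are shown 5′ to 3′ because they are the promoters of the paralogs whose levels the genotype comparison asks about. The matches are in capitals, and a match describes these letters only.
Foxp1 promoter: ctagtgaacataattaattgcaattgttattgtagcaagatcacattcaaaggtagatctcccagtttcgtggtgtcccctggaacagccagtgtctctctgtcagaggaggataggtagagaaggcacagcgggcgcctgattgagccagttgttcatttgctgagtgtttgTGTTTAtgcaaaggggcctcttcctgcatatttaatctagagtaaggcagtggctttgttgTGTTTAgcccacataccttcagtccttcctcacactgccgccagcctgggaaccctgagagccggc
Foxp4 promoter: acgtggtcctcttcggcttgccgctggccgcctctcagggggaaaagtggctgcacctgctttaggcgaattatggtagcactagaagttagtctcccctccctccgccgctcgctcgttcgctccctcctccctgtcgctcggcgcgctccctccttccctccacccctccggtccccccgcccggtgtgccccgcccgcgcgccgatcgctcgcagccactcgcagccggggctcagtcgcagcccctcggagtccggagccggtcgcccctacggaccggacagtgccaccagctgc
GC content was 48.7% in the Foxp1 window shown and 70.3% in the Foxp4 window.

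The targeted gene was lower on average in the heterozygotes given saline at all 3 tested Foxp2 probes, which read 1 gene. As a check of the genotype labels this covers the saline groups only. On probe ILMN_2659660 the 6 wild-type saline arrays lay between 8.84 and 9.20 with a median of 9.07, and the 5 heterozygous saline arrays were at 8.43, 8.55, 8.51, 8.30 and 8.44. Every heterozygous array was below every wild-type array. The group means were 9.05 ± 0.13 (SD) and 8.45 ± 0.09, a log2 difference of -0.61 ± 0.29 (SE), which leaves 65.7% of the wild-type level.

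Probe ILMN_3140000, the brightest of the Foxp2 probes by its mean, lay between 8.94 and 9.27 in wild-type saline arrays with a median of 9.10, and at 8.52, 8.48, 8.82, 8.82 and 8.42 in heterozygous saline arrays. Here too the groups did not overlap. The means were 9.09 ± 0.12 and 8.61 ± 0.20, a log2 difference of -0.48 ± 0.27 (SE) or 71.5% of the wild-type level. On ILMN_2659663 the wild-type arrays lay between 8.30 and 8.97 with a median of 8.85, and the heterozygous ones were at 8.22, 8.28, 8.13, 8.42 and 7.86. In that probe 4 of 5 heterozygous arrays were below all wild-type arrays, and the log2 difference was -0.55 ± 0.32 (SE).

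For these single values an exact permutation test over the arrays, two-sided, gave p = 0.00216 for ILMN_2659660, p = 0.00216 for ILMN_3140000 and p = 0.00866 for ILMN_2659663, where 0.00216 is the smallest that 462 splits of 11 arrays allow. These were 3 of 24 such tests, run for 6 probes in 4 comparisons, and are unadjusted. None of the 6 Foxp probes was called by limma across all probes, in which the adjusted p was 0.999 for each, and 0% of the 18509 probes tested were called in this comparison. At an unadjusted p under 0.05 there were 2 of 6 Foxp probes and 785 of all probes, or 4.24%. One of the 2 was the dim Foxp1 probe ILMN_2552236, which passed the detection filter mainly through wild-type arrays and supports no difference. The remaining Foxp2 probe, ILMN_2701613, was not detected on any array.

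After cocaine the 3 Foxp2 probes were again lower in the heterozygotes on average, with overlapping groups. ILMN_3140000 lay between 7.89 and 8.94 in wild-type cocaine arrays, with a median of 8.58, and between 7.02 and 9.22 in heterozygous cocaine arrays, with a median of 7.85. Heterozygous array 23 held the highest value of both groups and array 16 the lowest. The log2 difference was -0.53 ± 0.26 (SE), and -0.71 ± 0.27 and -0.70 ± 0.30 on ILMN_2659660 and ILMN_2659663. Exact permutation tests, two-sided, gave p = 0.188, p = 0.115 and p = 0.126 for the 3 probes in that order, and limma called none of the Foxp probes, with 0% of all probes called. At an unadjusted p under 0.05 there were 3 of 6 Foxp probes and 6.08% of all probes. They were ILMN_2659660 and ILMN_2659663 of Foxp2, which were lower, and the Foxp4 probe ILMN_1237606, which was higher. ILMN_3140000 was not among them. The mean level of ILMN_3140000 ran from wild-type saline (9.09 ± 0.12, SD) through heterozygous saline (8.61 ± 0.20) and wild-type cocaine (8.47 ± 0.41) to heterozygous cocaine (7.94 ± 0.82), and the middle 2 of these differed by less than their spread.

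Averaged over both injections, the Foxp2 differences between genotypes were -0.51 ± 0.19 (SE), -0.66 ± 0.20 and -0.63 ± 0.22 for ILMN_3140000, ILMN_2659660 and ILMN_2659663. None was called in limma (adjusted p 0.785 to 1.00), again with 0% of all probes called. An unadjusted p under 0.05 was held by 5 of 6 Foxp probes, against 4.40% of all probes. The 5 are not separate genes that move together. They were the 3 tested probes of Foxp2, which were lower, the dim ILMN_2552236, and the Foxp4 probe ILMN_1237606, which was higher.

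**Figure D1:**
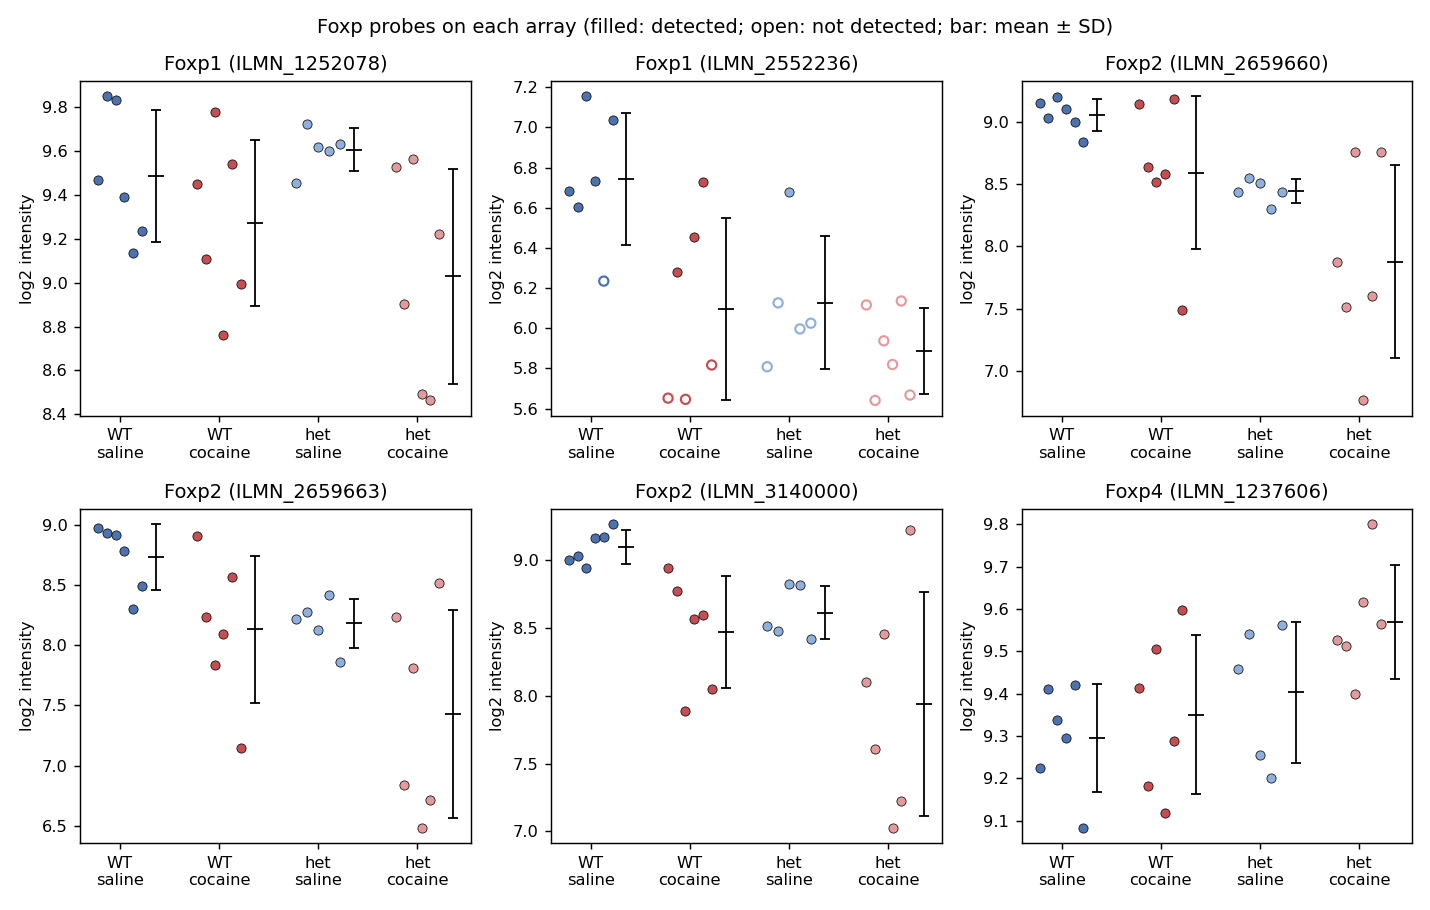
Each panel plots 1 Foxp probe as log2 intensity on every array, by group, with the group mean ± SD beside the points; filled points are detected and open points are not. The 3 Foxp2 probes are lower in heterozygous than in wild-type saline arrays, and the cocaine arrays spread further than the saline arrays.

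Foxp1, a dimerisation partner of Foxp2, did not differ between genotypes after saline beyond its spread at its bright probe. ILMN_1252078 lay between 9.13 and 9.85 in wild-type saline arrays, with a median of 9.43, and at 9.45, 9.72, 9.62, 9.60 and 9.63 in heterozygous saline arrays. All heterozygous values fell inside the wild-type range. The log2 difference was 0.12 ± 0.20 (SE) with a 95% interval of -0.30 to 0.54, and the exact permutation p, two-sided, was 0.403. After cocaine the difference was -0.24 ± 0.19 (SE), with an interval of -0.64 to 0.16 and an exact permutation p of 0.359.

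The other Foxp1 probe, ILMN_2552236, is annotated to the cDNA AK031837 and was dim. It was detected on 5 of 6 wild-type saline, 3 of 6 wild-type cocaine, 1 of 5 heterozygous saline and 0 of 6 heterozygous cocaine arrays, so it passed the detection filter mainly through wild-type arrays. In wild-type saline arrays it lay between 6.23 and 7.16 with a median of 6.71, and in heterozygous saline arrays at 5.81, 6.13, 6.68, 6.00 and 6.03. The groups overlapped. Most heterozygous values lie at background and the filter favoured the group where the probe was high, so no difference between genotypes or injections is given for it. The counts out of 6 Foxp probes still include its limma tests, and in each of those counts this probe supports no difference.

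The Foxp2 probes varied together. For the 3 pairs of Foxp2 probes the deviations from the group means over 23 arrays correlated with r of 0.78 to 0.84 and rho of 0.61 to 0.79, and the largest permutation p, adjusted over 4 probe pairs computed, was 0.00511 for r and 0.0226 for rho. Without the 2 arrays farthest from the median r was 0.74 to 0.76 among Foxp2 probes, and without heterozygous cocaine arrays 9, 16 and 19 it was 0.72 for ILMN_2659660 with ILMN_2659663 (permutation p = 0.0156), 0.57 for ILMN_2659660 with ILMN_3140000 (p = 0.102) and 0.57 for ILMN_2659663 with ILMN_3140000 (p = 0.0510). The fourth pair was that of the Foxp1 probes, for which no r is given because the dim probe was detected on 9 of 23 arrays.

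Foxp4, the most broadly expressed of the neuronal FOXP genes, was read by ILMN_1237606 alone, since ILMN_1242969 and ILMN_2650317 were not detected on any array. It lay between 9.08 and 9.42 in wild-type saline arrays with a median of 9.32, and at 9.46, 9.54, 9.26, 9.20 and 9.56 in heterozygous saline arrays, 3 of which were above all wild-type values. After cocaine the wild-type arrays lay between 9.12 and 9.60 with a median of 9.35, and the heterozygous arrays between 9.40 and 9.80 with a median of 9.55. The groups overlapped, and 2 of 6 heterozygous cocaine arrays were above all wild-type cocaine arrays.

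The genotype difference of Foxp4 was 0.11 ± 0.10 (SE) on the log2 scale after saline, with a 95% interval of -0.10 to 0.31 and an exact permutation p, two-sided, of 0.245. After cocaine it was 0.22 ± 0.09 with an interval of 0.02 to 0.42 and an exact permutation p of 0.0455. Averaged over injections it was 0.16 ± 0.07, opposite in sign to Foxp2, and limma's adjusted p was 1.00. The mean levels of Foxp4 ran, from low to high, from wild-type saline (9.29 ± 0.13, SD) through wild-type cocaine (9.35 ± 0.19) and heterozygous saline (9.40 ± 0.17) to heterozygous cocaine (9.57 ± 0.13). Neighbours in this order differed by less than 1 SD, apart from the last pair, whose ranges overlapped.

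Cocaine lowered no Foxp probe past the threshold. In wild-type mice ILMN_3140000 of Foxp2 lay between 8.94 and 9.27 after saline and between 7.89 and 8.94 after cocaine, and all 6 cocaine arrays were below all saline arrays. The log2 difference was -0.63 ± 0.26 (SE), the exact permutation p, two-sided, was 0.00216, and limma's adjusted p was 0.547. On ILMN_2659663 and ILMN_2659660 4 of 6 cocaine arrays were below all saline arrays, at -0.60 ± 0.30 and -0.46 ± 0.27, with exact permutation p-values of 0.0455 and 0.0584. The 6 Foxp probes held 0 of the 14 calls of this comparison, which took 0.0756% of all probes, and 2 of the 6, the dim ILMN_2552236 among them, against 8.43% of all probes had an unadjusted p under 0.05.

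In heterozygotes the cocaine differences of Foxp2 were -0.67 ± 0.27 (SE), -0.75 ± 0.32 and -0.57 ± 0.29 for ILMN_3140000, ILMN_2659663 and ILMN_2659660. On each of them 4 of 6 cocaine arrays were below all saline arrays while array 23 was above all of them, and the exact permutation p-values, two-sided, were 0.121, 0.119 and 0.136. The bright Foxp1 probe ILMN_1252078 lay between 8.46 and 9.57 after cocaine with a median of 9.06, and 4 of 6 arrays were below all saline arrays. Its difference was -0.58 ± 0.20 (SE) with an exact permutation p of 0.0325 and a limma adjusted p of 0.142, and in wild-type mice it was -0.21 ± 0.19 with an exact permutation p of 0.292. Limma called 0 of the 6 Foxp probes in heterozygotes, where 2.22% of all probes were called, and 3 of 6 against 15.3% had an unadjusted p under 0.05.

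Averaged over genotypes, the cocaine difference was -0.65 ± 0.19 (SE) for ILMN_3140000, -0.67 ± 0.22 for ILMN_2659663 and -0.52 ± 0.20 for ILMN_2659660 of Foxp2, with limma adjusted p-values of 0.0520, 0.0836 and 0.152. For Foxp1 ILMN_1252078 it was -0.40 ± 0.14 (adjusted p = 0.116). Foxp4 differed by 0.11 ± 0.07 with a 95% interval of -0.03 to 0.25 (adjusted p = 0.430). The Foxp probes again had 0 calls, against 3.87% of all probes, and 5 of 6, the dim ILMN_2552236 among them, had an unadjusted p under 0.05, against 17.98% of all probes. ILMN_3140000 lay close to the threshold and passed it under 5 alternative settings and without wild-type cocaine array 4 (adjusted p = 0.0378), heterozygous cocaine array 11 (0.0290) or heterozygous cocaine array 23 (0.00434).

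In the fit of all 23 arrays the response to cocaine did not differ detectably between genotypes at any Foxp probe. The interaction was -0.05 ± 0.38 (SE) for ILMN_3140000, with a 95% interval of -0.82 to 0.73, -0.36 ± 0.28 for ILMN_1252078 and 0.11 ± 0.14 for Foxp4. No Foxp probe was called or had an unadjusted p under 0.05, and limma called 0% of all probes, of which 5.20% had an unadjusted p under 0.05.

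**Figure D2:**
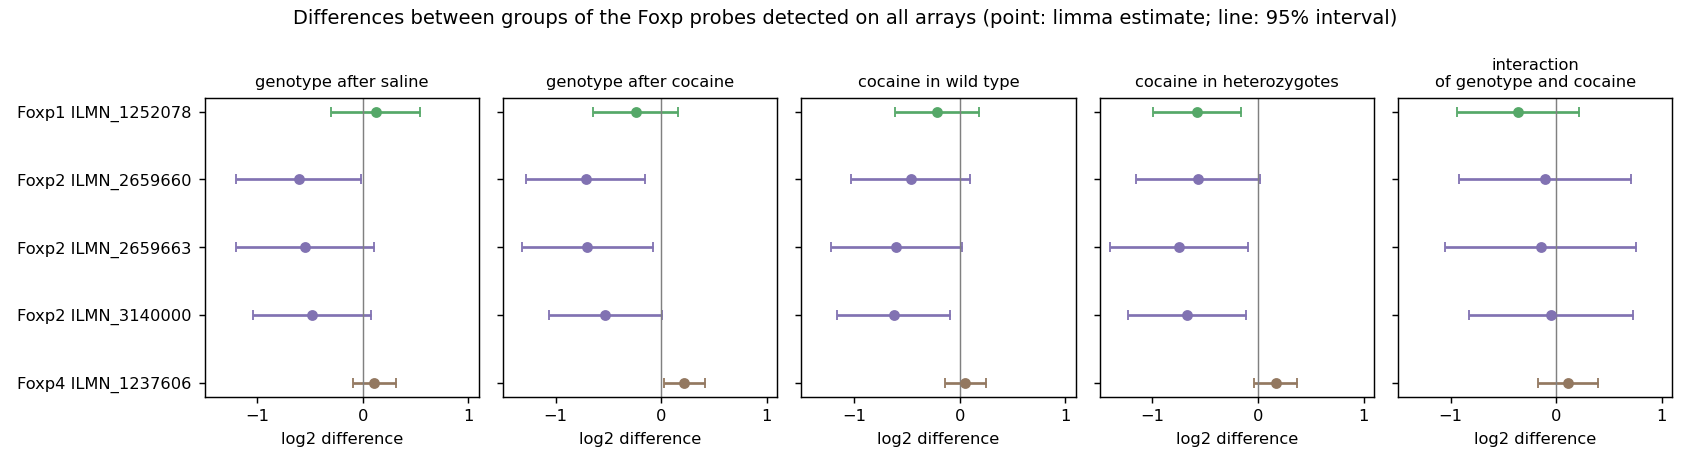
Points are limma log2 differences of the 5 Foxp probes detected on all arrays and lines their 95% intervals, in 5 comparisons (heterozygous minus wild type, cocaine minus saline, and their interaction). The 3 Foxp2 points lie below 0 in the first 4 panels and the Foxp4 point lies above 0 in all 5.

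Foxp2 and Foxp1 levels moved with scores of cell type markers. A score of striatal projection neuron markers, the mean log2 deviation of 11 measured genes of 14 from the mean of all arrays, ran from 0.03 to 0.29 in wild-type saline, from -0.29 to 0.16 in wild-type cocaine, from -0.05 to 0.21 in heterozygous saline and from -0.63 to 0.03 in heterozygous cocaine arrays. The list holds no Foxp gene. A score of excitatory cortical neuron markers (7 measured of 9) had group means of -0.31, 0.17, -0.54 and 0.59 in the same order. The summed intensity of the excitatory markers ran from 3455 to 6312 in wild-type saline and from 5408 to 13274 in heterozygous cocaine arrays. In bulk tissue fewer cells of a type and less RNA per cell cannot be told apart.

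Heterozygous cocaine arrays 9, 16 and 19 stood apart from the other 3 of their group. Their striatal scores were -0.57, -0.63 and -0.51 and their excitatory scores 1.18, 1.11 and 1.08, whereas arrays 3, 11 and 23 had striatal scores of -0.07, -0.03 and 0.03. The same 3 arrays had the lowest Foxp2 levels of the group, at 7.61, 7.02 and 7.22 on ILMN_3140000, and the lowest bright Foxp1 levels, at 8.90, 8.49 and 8.46.

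Within groups, the striatal score followed Foxp2 (ILMN_3140000) with r = 0.80 and rho = 0.70 over 23 arrays, with permutation p-values of 0.00158 and 0.00871. It followed Foxp1 (ILMN_1252078) with r = 0.67 and rho = 0.70 (permutation p = 0.0134 and 0.00518). For Foxp4 r was -0.40 and rho -0.31 (permutation p = 0.0604 and 0.157). Adjusted over the 9 relations computed, the p of r was 0.00711, 0.0355 and 0.0776 and the p of rho 0.0196, 0.0155 and 0.202 for Foxp2, Foxp1 and Foxp4. Without the 2 arrays farthest from the median score r was 0.70, 0.63 and -0.45. Without arrays 9, 16 and 19 it was 0.50 for Foxp2 (permutation p = 0.0352) and 0.34 for Foxp1 (permutation p = 0.267). Those arrays had the lowest striatal scores of their group, and the change in r was not tested for either gene.

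The excitatory score went the other way. It gave r = -0.69 and rho = -0.73 with Foxp2 (permutation p adjusted over the 9 relations 0.00711 and 0.0109), r = -0.44 and rho = -0.54 with Foxp1 (adjusted 0.0776 and 0.0390), and r = 0.44 and rho = 0.41 with Foxp4 (adjusted 0.0776 and 0.0879). Among the members, Foxp2 and Foxp4 varied in opposite directions, with r = -0.49 and rho = -0.63 (adjusted 0.0355 and 0.0109). Without the 2 arrays farthest from the Foxp2 median r was -0.69, and without arrays 9, 16 and 19 it was -0.45 (permutation p = 0.0616). Foxp1 and Foxp2 gave r = 0.37 and rho = 0.31 (adjusted 0.258 and 0.263), and Foxp1 and Foxp4 r = -0.03.

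**Figure D3:**
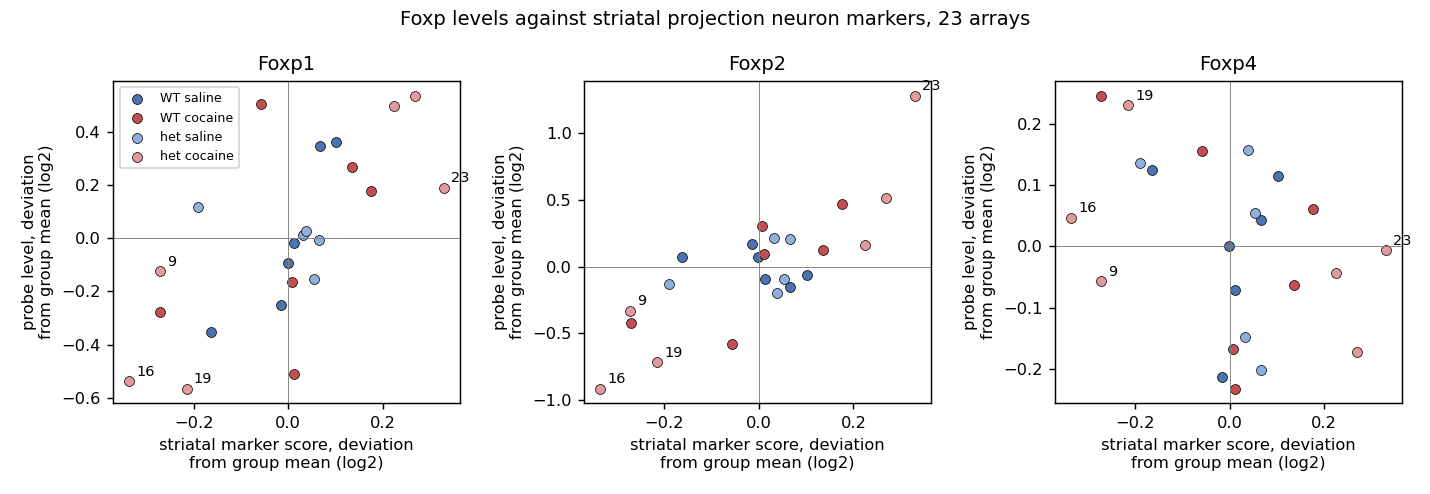
Each point is 1 array, with the striatal marker score on the x axis and the level of the representative probe on the y axis, both as log2 deviation from the group mean; heterozygous cocaine arrays 9, 16, 19 and 23 are numbered. Foxp2 and Foxp1 are low where the striatal score is low (r = 0.80 and 0.67), and Foxp4 has r = -0.40.

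The Foxp differences were also fitted with a marker score in the model. With the striatal score the genotype difference of Foxp2 after saline was -0.39 ± 0.17 (SE) for ILMN_3140000, -0.50 ± 0.17 for ILMN_2659660 and -0.42 ± 0.15 for ILMN_2659663. With the excitatory score in its place it was -0.64 ± 0.21, -0.76 ± 0.23 and -0.73 ± 0.25. None of these was called (adjusted p 0.950 to 1.00), and the difference between the fits was not tested.

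The genotype difference after cocaine was 0.05 ± 0.19 for ILMN_3140000, -0.08 ± 0.19 for ILMN_2659660 and 0.07 ± 0.16 for ILMN_2659663 with the striatal score, and 0.12 ± 0.22, -0.13 ± 0.26 and 0.05 ± 0.26 without arrays 9, 16 and 19. The cocaine difference averaged over genotypes became 0.01 ± 0.16 for ILMN_3140000 and 0.01 ± 0.15 for the bright Foxp1 probe with the striatal score. Without arrays 9, 16 and 19 these were -0.32 ± 0.14 and -0.19 ± 0.13. These arrays held the lowest Foxp2 and bright Foxp1 levels of their group. Leaving them out therefore raises the heterozygous cocaine mean by construction, and the values without them test no difference. Foxp4 differed between genotypes after saline by 0.09 ± 0.10 with the striatal score. A score measured in the same RNA also takes up any part of a Foxp difference that the markers share.

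**Figure D4:**
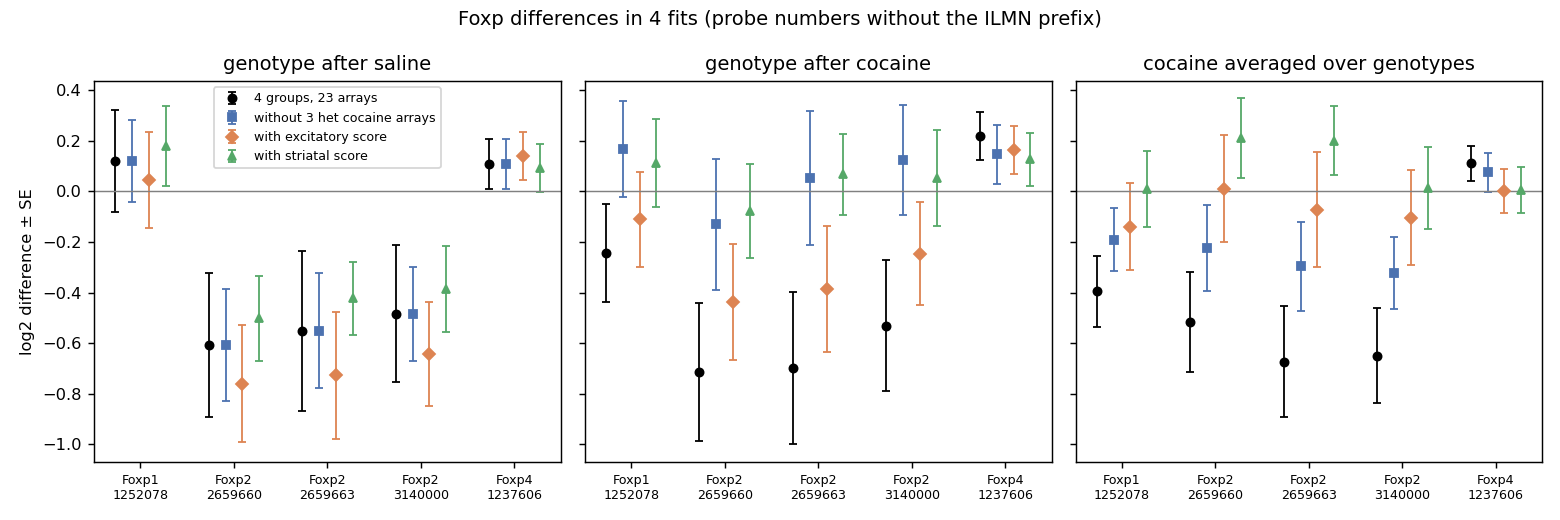
Log2 differences ± SE of the 5 Foxp probes detected on all arrays in 3 comparisons and 4 fits (all 23 arrays, without heterozygous cocaine arrays 9, 16 and 19, with the excitatory score and with the striatal score). After saline the Foxp2 genotype differences lie between -0.76 and -0.39. The fit without the heterozygous cocaine arrays holds the same saline arrays, so its differences after saline equal those of all 23 arrays by construction. Averaged over genotypes the cocaine difference of ILMN_3140000 goes from -0.65 to 0.01 with the striatal score. Arrays 9, 16 and 19 are the lowest of their group on Foxp2, so the fit without them raises the heterozygous cocaine mean by construction.

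The genes whose deviations from the group means were most like each member over 23 arrays were named by rank. For Foxp2 they were Cbr3, a carbonyl reductase (r = 0.88), Htr1d, a serotonin receptor (0.85), the orphan receptor Gpr83 (0.84), the small GTPase Rem2 (0.84) and Prrt4 (0.83). For Foxp1 they were Syt5, a synaptotagmin (0.87), the phosphodiesterase Pde2a (0.84), Faap20 (0.83), the homeobox factor Pbx3 (0.83) and the hedgehog receptor Ptch1 (0.82). For Foxp4 they were the growth factor Vegfc (0.78), Tmem41b (0.78), the RNA polymerase III subunit Polr3k (0.76), Tmem177 (0.73) and Pcyt1b (0.73). No gene stood among the 5 of more than 1 member. These correlations were ranked over all genes and carry no test.

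Among 41 other forkhead genes 13 had a tested probe, and 0 were called in any genotype comparison or with cocaine averaged over genotypes. Over all genes 3.16% were called higher and 1.29% lower with cocaine. The smallest p-values of the list belonged to Foxo1, an insulin-regulated forkhead factor, at -0.47 ± 0.13 (SE, limma adjusted p = 0.0517), and Foxj2 at -0.21 ± 0.06 (adjusted p = 0.0612). The median of the list was -0.06 against -0.01 for all genes.

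Of 21 subunits of corepressors that bind FOXP proteins 14 were measured, and 0 were called with cocaine or between genotypes. Their median cocaine difference was -0.03. After saline Pias3, a SUMO ligase, was at 0.42 ± 0.14 (SE) in heterozygotes against wild type, with an unadjusted limma p of 0.00748 and an adjusted p of 0.999. In that comparison the list's median was 0.00 and that of all genes 0.01.

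Transcription factors reported to bind FOXP proteins were measured for 8 of 12, and 4 rose with cocaine averaged over genotypes, 0 fell and 4 did not pass, with a median of 0.35. Over all genes 3.16% were called higher and 1.29% lower. Among the 4 that did not pass, Zbtb20 (-0.34 ± 0.10, SE) and Nkx2-1 (-0.41 ± 0.16) were lower at an unadjusted limma p under 0.05. Nfix, a nuclear factor I protein, rose by 0.36 ± 0.08 (SE, limma adjusted p = 0.0193), Sox5 by 0.58 ± 0.14 (0.0248), Tbr1, a T-box factor of cortical glutamatergic neurons, by 0.97 ± 0.26 (0.0378) and the chromatin organiser Satb1 by 0.39 ± 0.11 (0.0489). Tbr1 is also an excitatory cortical marker, and 5 of the 7 measured markers of that list rose, 0 fell, with a median of 0.97. The most significant were Neurod1 at 1.06 ± 0.20, Neurod2 at 1.18 ± 0.23 and the vesicular glutamate transporter Slc17a7 at 1.09 ± 0.24. In wild type alone none of the 4 partner genes was called (limma adjusted p 0.624 to 0.726). Without arrays 9, 16 and 19, a set left out for this count after seeing the data, 0 of the 8 partner genes and 0 of the 7 excitatory markers were called, against 42 of all genes higher and 7 lower, and the medians were 0.22 and 0.67. These arrays had high excitatory scores, so leaving them out lowers the rise of the excitatory markers, Tbr1 among them, by construction. That fit also has fewer cocaine arrays, and its counts test no difference. The part of cortical marker content in the partner list was not tested.

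Of 10 genes linked to FOXP2 as targets in earlier reports 6 were measured. With cocaine averaged over genotypes 3 of them rose, 1 fell and 2 did not pass, against 3.16% of all genes higher and 1.29% lower. The 2 that did not pass were both below 0, Cntnap2 at -0.30 ± 0.09 (SE, limma adjusted p = 0.0508) and Vldlr at -0.12 ± 0.06 (0.292). The peptide gene Cck rose by 1.24 ± 0.22 (SE, limma adjusted p = 0.00245), the activity-dependent factor Mef2c by 0.49 ± 0.09 (0.00373) and neuritin Nrn1 by 1.22 ± 0.23 (0.00469), and the retinoic acid receptor Rarb fell by 0.47 ± 0.11 (adjusted p = 0.0200). In wild type alone Cck was at 0.74 ± 0.30 (adjusted p = 0.536) and in heterozygotes at 1.73 ± 0.31 (adjusted p = 0.00562). In heterozygotes 3 of the 6 targets were called higher and 2 lower, against 198 higher and 74 lower of all 10138 genes. The lower ones were Rarb and Cntnap2 (-0.47 ± 0.12, limma adjusted p = 0.0455). The interaction of genotype and cocaine was 0.99 ± 0.43 (SE) for Cck, 0.41 ± 0.18 for Mef2c and 1.06 ± 0.47 for Nrn1. None of these interactions was called (limma p 0.0326 to 0.0329 unadjusted, 0.927 adjusted for each). The excitatory markers rose in the same comparison as these 3 genes, and without arrays 9, 16 and 19 none of the 6 targets was called, with Cck at 1.02 ± 0.23 (adjusted p = 0.0633). Their part in these rises was not tested. Rarb is also a striatal marker, and 6 of the 11 measured striatal markers fell, 0 rose, with a median of -0.31 (0 fell and a median of -0.16 without arrays 9, 16 and 19). Ppp1r1b, which encodes DARPP-32, was at -0.40 ± 0.09 and Rgs9 at -0.42 ± 0.10. Arrays 9, 16 and 19 had the lowest striatal scores of their group, so leaving them out raises the striatal markers by construction. After saline, 0 of the 6 targets were called between genotypes, and Nrn1 had the smallest p, at -0.75 ± 0.34 (unadjusted 0.0354, adjusted 0.999).

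D1-type markers included Drd1, the dopamine receptor of the neurons that hold most Foxp2, which fell by 0.45 ± 0.07 (SE, limma adjusted p = 0.000993), and Slc35d3, which fell by 0.42 ± 0.10 (0.0168), so that 2 of 7 measured markers fell and 0 rose. Of 5 measured D2-type markers 4 fell, among them Gpr6 by 0.54 ± 0.12 (0.0112) and the enkephalin gene Penk by 0.53 ± 0.13 (0.0204). With cocaine averaged over genotypes 1.29% of all genes were called lower. Neither list had a call between genotypes after saline, where their medians were 0.08 and 0.01. After cocaine the medians between genotypes were -0.32 and -0.39, with 0 calls. At an unadjusted p under 0.05, 3 of 7 D1-type and 2 of 5 D2-type markers were lower, with Drd1 at -0.38 ± 0.10 (limma adjusted p = 0.576). Over all 10138 genes 306 were lower and 368 higher at that p. Arrays 9, 16 and 19 belong to the heterozygous group of this comparison. Without arrays 9, 16 and 19 the cocaine calls of the lists were 1 of 7, which was Drd1 (-0.34 ± 0.06, adjusted p = 0.0121), and 0 of 5. These arrays had the lowest striatal scores of their group, so the counts without them test no difference. Deep layer cortical markers had 0 calls among 6.

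The labels give the sex of the animals behind the authors' processed values only, and it was tested there for 11 male and 12 female mice. The bright Foxp1 probe was at 9.46 ± 0.30 (SD) in males and 9.11 ± 0.43 in females, with ranges of 8.83 to 9.80 and 8.38 to 9.58 that overlapped. The difference between males and females, averaged over the 4 groups, was 0.38 ± 0.12 (SE, limma adjusted p = 0.0966). The labels tie no array number to an animal, so sex and array order or chip cannot be told apart here. In wild-type saline mice all 3 males (9.41 to 9.80) were above all 3 females (9.07 to 9.33), and in heterozygous saline mice the means were 9.53 in 2 males and 9.56 in 3 females. Foxp2 differed by 0.00 to 0.36 over its 3 probes and Foxp4 by 0.01 ± 0.07. None of the Foxp probes was called, against 1.91% of the 16253 probes of that table.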

How the data were processed

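Total RNA of nucleus accumbens punches was hybridised as biotin-labelled cRNA, per the labels' protocols. The deposited raw table gives probe intensity per array, not normalized per the file headers, and since 24.9% to 30.3% of its values per array are below 0 the background had been subtracted beforehand. Beside each intensity stands a detection p-value, per the file headers. The authors' processed values are log2 and quantile normalized, as read from the deposited values, where the sorted values are identical on every array. For their software, nothing is given in the sources used here.

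In R 4.3.3, limma 3.58.1 normalized the intensities by neqc (offset 16). Probes were tested where 5 or more of the 23 arrays had a detection p under 0.01. Between 16102 and 17933 probes were detected per array, and arrays correlated with r of 0.967 to 0.991. Of 45281 probes 34885 have 1 gene in the array's annotation, 18 several and 10378 none. A linear model of 4 groups (19 residual degrees of freedom) gave two-sided moderated tests in 7 comparisons, adjusted by Benjamini-Hochberg over all probes. The fit was tested on simulated data. The headings of the raw table name the group and an array number, not the animal, so sex was fitted only to the authors' values.

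A gene is represented by its tested probe of highest mean. All Foxp probes were named, along with up to 4 called genes of each list with the smallest p (up to 2 where none passed) and the 5 genes most like each member. Some uncalled genes of a list are named beside its calls. The members, lists and rules were chosen with earlier results of these data known. Nothing in the labels says that same-numbered replicates share a litter or day, and the p-values measure the spread between animals. Alternatives were another normalization, an offset of 50, the authors' values, other filters, a replicate block, sex, array weights, an intensity trend, the compared groups alone, blocks of 6 array numbers, marker scores, and leaving out arrays. List counts without arrays 9, 16 and 19 were added after seeing the data. Promoter sequences are from RefSeq on GRCm38.p6 and cover 2 of the 3 genes.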

Additional observations from a re-analysis of the deposited data

How the results depend on the processing

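The genotype comparisons, cocaine in wild type and the interaction had 0 called Foxp probes under each alternative tried. Calls arose with cocaine averaged over genotypes and with cocaine in heterozygotes. Averaged over genotypes, 1 Foxp probe was called with an offset of 50, the authors' values, detection on all arrays, sex or an intensity trend. Array weights gave 3, the dim ILMN_2552236 among them, and the main fit 0. Foxp2 ILMN_3140000 then stood at -0.58 with the offset of 50 (limma adjusted p = 0.0395), -0.68 with the authors' values (0.0496), -0.65 with detection on all arrays (0.0382) and with the trend (0.0464), and -0.67 with array weights (0.0322). With sex as a covariate Foxp1 ILMN_1252078 was at -0.43 (0.0444). Leaving out each array in turn gave -0.78 to -0.56 for ILMN_3140000 averaged over genotypes, with 0 to 2 probes called, and -0.93 to -0.49 in heterozygotes, with 0 to 1 called; the call in heterozygotes came without array 23. Leaving out array 17 (wild-type saline) or array 21 (wild-type cocaine) made the called probe the dim ILMN_2552236, and leaving out heterozygous cocaine array 3 made it ILMN_2659663. The cause was not tested. Single arrays also moved uncalled values by over 1.5 times: ILMN_2659660 was at -0.24 with cocaine in wild type without array 24 and at -0.35 in heterozygotes without array 16, ILMN_3140000 at -0.35 between genotypes after cocaine without array 16, and ILMN_1252078 at -0.11 with cocaine in wild type without array 13. With the striatal score as a covariate, the cocaine difference averaged over genotypes was 0.014 for ILMN_3140000, 0.0089 for ILMN_1252078, 0.21 for ILMN_2659660 and 0.20 for ILMN_2659663. In heterozygotes it was 0.23 for ILMN_3140000 and 0.45 for ILMN_2659663, and the latter had a genotype difference after cocaine of 0.068 and an interaction of 0.49. With the excitatory score the values in heterozygotes were 0.094 for ILMN_3140000 and 0.098 for ILMN_2659663, and ILMN_2659660 averaged over genotypes was at 0.010. Without arrays 9, 16 and 19 ILMN_2659663 was at 0.054 between genotypes after cocaine and at 0.0052 with cocaine in heterozygotes, and the interaction of ILMN_3140000 was 0.61, while between genotypes after cocaine ILMN_3140000 went from -0.53 to 0.12. Of 1508 alternative values 46 had the other sign, 32 of them with neither value under an unadjusted p of 0.05. Most of the 1508 come from leaving out single arrays. A left-out array outside the compared groups cannot change their difference, so the share with the other sign is low in part by construction. Removing blocks of array numbers gave r of -0.54 between the striatal score and Foxp4 and -0.54 between the excitatory score and Foxp1. Over deviations from the mean of all arrays r was 0.54 for Foxp1 and Foxp2, -0.61 for the striatal score and Foxp4, -0.65 for the excitatory score and Foxp1 and 0.55 for the excitatory score and Foxp4, each then past the threshold. Without arrays 9, 16 and 19, r of -0.45 (Foxp2 and Foxp4) and 0.34 (striatal score and Foxp1) no longer passed. The sex difference of Foxp2 ILMN_3140000 was -0.21 in saline samples alone, and that of Foxp1 was 0.33 to 0.43 when each sample was left out.

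With the label's replicate number as a block, in the authors' values, 0 Foxp probes were called in each comparison; ILMN_3140000 was at -0.72 (adjusted p = 0.0559) with cocaine averaged over genotypes, -0.43 between genotypes after saline and -0.79 with cocaine in heterozygotes. Same-numbered samples correlated with r of -0.26 to 0.42 (median 0.08), 13 of 33 pairs over 0.1 against 32 of 165 other pairs (median -0.02), and 7 of 23 samples correlated best with their own number. Per the labels same-numbered samples were of the same sex in all groups except for number 3, and no label says that they share a litter or day, so they were not taken as pairs.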
